A study of Homo sapiens with 12 samples.

Results

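The clustered replication-dependent histone genes encode the H1 linker histones and the H2A, H2B, H3 and H4 core histones that package newly copied DNA. They were found by symbol: every transcript cluster (the array's unit of measurement, a group of probes) annotated with a HIST1H, HIST2H or HIST3H symbol, or in current names with H1-1 to H1-6 or with H2AC, H2BC, H3C or H4C and a number. This gave 58 genes that had a transcript cluster annotated with them alone, of 18417 such genes on the array. A further 20 transcript clusters were annotated with several genes, at least 1 of them a histone gene, so that 78 of 33297 clusters fell under the rule. The 58 genes were 6 H1, 14 H2A, 17 H2B, 8 H3 and 13 H4 genes, with 49 on chromosome 6, 8 on chromosome 1 and 1, H4C16, on chromosome 12. One was a pseudogene, H2BC19P. H4C14 and H4C15 had the same value on each of the 12 arrays, so the 58 genes gave 57 distinct measurements.

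Expression was profiled in NCCIT, a human embryonal carcinoma line derived from a germ cell tumour, with 2 arrays for each of 6 siRNA treatments. The treatments were siWDR5, against a subunit that MLL/COMPASS complexes need to methylate H3K4; siEED, against a core subunit of the H3K27 methyltransferase PRC2; siRNF2, against the H2A ubiquitin ligase of PRC1; siEED+RNF2, which combined both pools; siSETD2, against an H3K36 methyltransferase; and siNTC, a non-targeting control. Each pool held 4 siRNAs against its target and was transfected at 24 h and again at 48 h after seeding, with harvest at 96 h. The dual transfection used the full amount of each pool and more transfection reagent than a single knockdown. In its comparisons the total siRNA and reagent dose cannot be told apart from the added target. The siSETD2 transfection is not given in the sources used here. Both siNTC arrays carry the words re-analysis in their titles, and all 5 comparisons with control use this 1 pair. Since no source says whether the 2 arrays of a treatment are independent cultures, the p-values cover array-to-array spread, which may be technical. In bulk RNA a change in the share of cells in S phase and a change in RNA per cell cannot be told apart.

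Replication-dependent histone genes have no introns, and most of their mRNAs end in a stem-loop bound by SLBP in place of a poly(A) tail. Their transcription is switched on at the start of S phase, when cyclin E and CDK2 phosphorylate the coactivator NPAT at the histone locus body, and their mRNAs are quickly degraded when DNA synthesis stops. Each histone type is made from many gene copies whose coding sequences are nearly alike, so a probe set may also read RNA of a related copy.

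Array medians lay between 6.29 and 6.36 (log2), and arrays of the same treatment correlated at 0.996 to 0.997 over all transcript clusters. Over the 58 genes the 2 arrays of a treatment differed by a median of 0.08 and at most 0.68. The targeted transcripts were lower in their own knockdowns: WDR5 read 8.39 and 8.24 in siWDR5 cells, against 9.48 and 9.58 in siNTC cells. EED read 8.25 and 8.14 in siEED cells and 7.93 and 7.82 in siEED+RNF2 cells, against 9.55 and 9.43 in siNTC cells, and SETD2 read 9.01 and 9.08 in siSETD2 cells, against 10.78 and 10.81 in siNTC cells. EED also read 8.85 and 8.80 in siRNF2 cells, a called change of -0.66 against siNTC. RNF2 is not analysed here. Of 10 embryonal carcinoma markers, 7 were measured, among them SOX2, LIN28A, SALL4 and DNMT3B, and their gene means over the 12 arrays lay between 10.01 and 12.68. Averaged over these 7 markers the arrays read 11.43 to 11.48 in siWDR5 cells, 11.34 to 11.38 in siEED cells, 11.34 to 11.36 in siRNF2 cells, 11.19 to 11.23 in siEED+RNF2 cells and 11.87 to 11.89 in siSETD2 cells, against 11.67 to 11.68 in siNTC cells, and the part of this shift in the histone results was not tested. Of the 7, 5 were called in at least 1 knockdown, beside 19.6% of all genes. The calls were LIN28A at -0.68 in siWDR5 cells and DNMT3B at -0.71 in siRNF2 cells. In siEED+RNF2 cells they were L1TD1 at -1.08, LIN28B at -0.90 and DNMT3B at -0.62. In siSETD2 cells they were L1TD1 at 0.67 and DPPA4 at 0.59. The 11 measured of 14 markers of blood, stromal, endodermal, neural and epithelial cells averaged 4.77 to 4.92 on every array. Of these 11, limma called 0 in any knockdown, beside the same 19.6% of all genes. At an unadjusted p under 0.05 at most 4 were lower and 0 higher in a comparison.

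A minority of the histone genes changed, and 3 of them changed in every knockdown. A gene was called when limma's moderated test, adjusted by Benjamini-Hochberg over all 18417 genes, gave a p under 0.05 with a fold of at least 1.5. Against siNTC, 6 of the 58 histone genes were called higher in siWDR5 cells and 4 lower, beside 2.8% of all genes higher and 3.22% lower. In siEED cells 7 were higher and 0 lower (4 lower at an unadjusted p under 0.05), beside 3.74% and 2.63% of all genes. In siRNF2 cells 6 were higher and 1 lower, beside 6.37% and 3.81%; after the median of all genes was set equal on every array, which lowers every siRNF2 change by 0.13, the same count was 6 higher and 3 lower. In siEED+RNF2 cells 9 were higher and 0 lower (7 lower at an unadjusted p under 0.05), beside 5.49% and 6.02%. In siSETD2 cells 4 were higher and 0 lower (7 lower at an unadjusted p under 0.05), beside 2.64% and 3.18%. The shares of all genes at an unadjusted p under 0.05 are not given for any comparison.

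The typical member moved little. The median log2 change of the 58 genes was -0.01 in siWDR5 cells, 0.10 in siEED cells, 0.01 in siRNF2 cells, 0.18 in siEED+RNF2 cells and 0.06 in siSETD2 cells. Over all genes the same medians were -0.03, -0.03, -0.04, -0.02 and -0.01. In siEED+RNF2 cells 48 of the 58 changes were positive, against 27 in siWDR5 cells, 34 in siEED cells, 30 in siRNF2 cells and 36 in siSETD2 cells. The shares of all genes with a positive change are not given here. Across the 5 knockdowns 14 of the 58 genes were called at least once, or 24.1%, beside 19.6% of all genes, 44 were called in none, and 41 stayed within 0.5 of siNTC in each. Of the 58, 10 were called higher at least once, 2 of each histone type, and 4 were called lower, with no gene called in both directions. For each direction alone the share of all genes called at least once is not given here. All 10 that were higher lay among the 49 genes of chromosome 6, and 3 of the 4 that were lower, H2BC19P, H2BC21 and H4C16, among the 9 genes of chromosomes 1 and 12. Each of these 3 was called in siWDR5 cells alone and lost its call when 1 array was left out: siWDR5 replicate 2 for H2BC21 (-0.43), siNTC replicate 1 for H4C16 (-0.52) and either of these arrays for H2BC19P (-0.48 at the smallest). Of the 58 genes, 9 were among the 30% of genes with the lowest mean signal and none of those 9 was called.

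**Figure D1:**
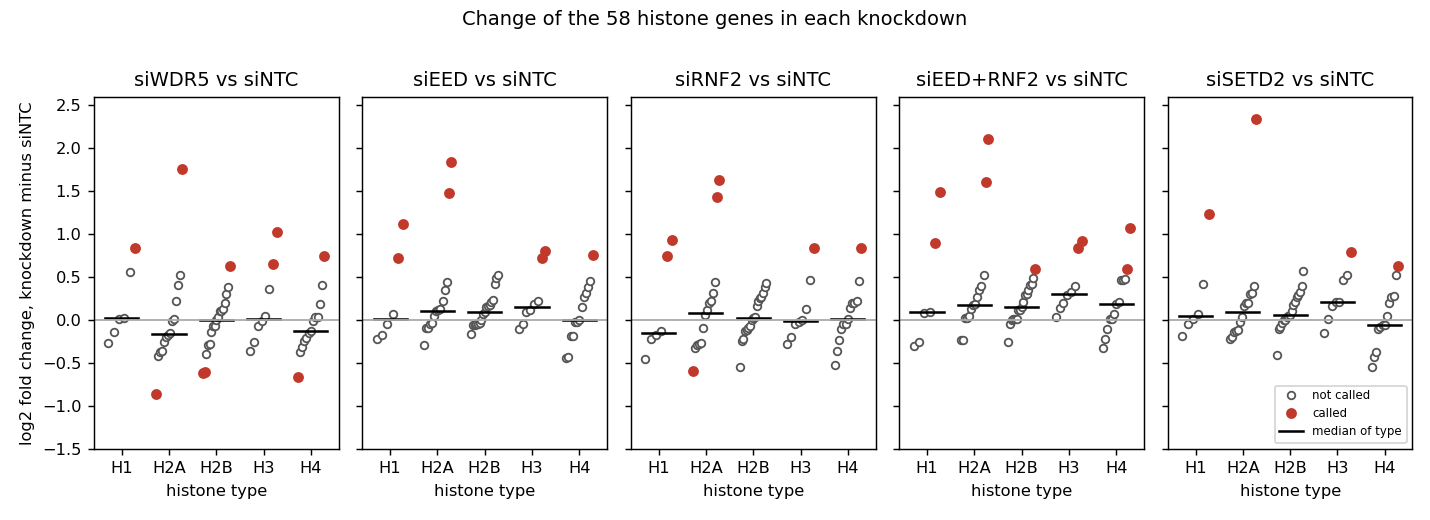
Log2 fold change of each of the 58 histone genes (points) in each knockdown against siNTC, by histone type, with the median of each type as a line; filled points were called at an adjusted p under 0.05 and a fold of at least 1.5. Most points lie near 0 in every panel, and the highest H2A point of each panel is H2AC4, between 1.63 and 2.34, with H2AC14 next to it at 1.48 in siEED cells, 1.43 in siRNF2 cells and 1.60 in siEED+RNF2 cells.

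H2AC4, H1-3 and H4C6 were called higher in all 5 knockdowns, as were 82 of all genes (0.445%). H2AC4 encodes a core H2A histone and showed the greatest change of the 58 genes in each comparison. It read 8.59 and 8.39 in siWDR5, 8.56 and 8.58 in siEED, 8.35 and 8.37 in siRNF2, 8.71 and 8.96 in siEED+RNF2 and 9.06 and 9.08 in siSETD2 cells, against 6.94 and 6.53 in siNTC cells. All 10 knockdown arrays were therefore above both control arrays, with the siSETD2 pair at the top. Other members also had every knockdown pair wholly above or wholly below the siNTC pair. This held for 3 of 6 H1, 7 of 14 H2A, 1 of 17 H2B, 3 of 8 H3 and 8 of 13 H4 genes. Some of these were called in no knockdown, so such separation does not by itself set a gene apart. The log2 changes were 1.76 in siWDR5 cells, 1.84 in siEED cells, 1.63 in siRNF2 cells, 2.10 in siEED+RNF2 cells and 2.34 in siSETD2 cells (SE 0.12 each), or 3.38, 3.58, 3.1, 4.3 and 5.05-fold, with adjusted p of 1.62e-06, 7.69e-07, 1.09e-06, 1.19e-07 and 1.55e-07 by limma.

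H1-3 encodes a linker histone, which binds the DNA entering and leaving the nucleosome. Its values were 9.02 and 8.90 in siWDR5, 9.23 and 9.24 in siEED, 8.98 and 9.11 in siRNF2, 9.53 and 9.68 in siEED+RNF2 and 9.36 and 9.35 in siSETD2 cells, against 8.25 and 7.99 in siNTC cells. The knockdown and control arrays did not overlap, and the siEED+RNF2 pair was highest. The log2 changes were 0.84, 1.12, 0.93, 1.48 and 1.23 in siWDR5, siEED, siRNF2, siEED+RNF2 and siSETD2 cells (SE 0.09 each; limma adjusted p at most 3.41e-05).

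H4C6, one of the H4 copies, is the next annotated gene to H1-3 on chromosome 6 and is read from the opposite strand. It read 7.70 and 7.56 in siWDR5, 7.63 and 7.65 in siEED, 7.58 and 7.86 in siRNF2, 7.90 and 8.0 in siEED+RNF2 and 7.53 and 7.50 in siSETD2 cells, against 6.97 and 6.80 in siNTC cells. The groups again did not overlap, although the smallest gap, in siSETD2 cells, was close to the fold threshold. Its log2 changes were 0.75, 0.76, 0.83, 1.07 and 0.63 in the same order (SE 0.09 each; limma adjusted p at most 0.000362), and the siSETD2 call was lost without siNTC replicate 2.

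These 3 genes separated the siNTC pair from the knockdowns more than the knockdowns from each other. In an alternative, siNTC was replaced by the mean of those other knockdowns that share no siRNA pool with the one compared, so that siEED and siRNF2 were set against a mean without siEED+RNF2, and siEED+RNF2 against siWDR5 and siSETD2 alone. None of the 3 was called in any knockdown there. The H2AC4 change became -0.22 in siWDR5 cells, -0.07 in siEED cells and -0.35 in siRNF2 cells, and stayed positive in siEED+RNF2 and siSETD2 cells. A difference that all 5 knockdowns share and a difference particular to the siNTC arrays cannot be told apart in this design.

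The 250 bases upstream of these genes, and of H2AC14 described below, are given because histone promoters differ by type in the short elements they carry. They are from RefSeq (GRCh38.p14), run 5′ to 3′ toward the start site, and show in capitals the CCAAT box (CCAAT), the TATA box (TATAAA), the octamer (ATTTGCAT) and the GC box (GGCGGG), each on either strand; none of these motifs contains another. The H2AC4 window is chr6:26033619-26033868 (minus strand), the H1-3 window chr6:26234988-26235237 (minus), the H4C6 window chr6:26240143-26240392 (plus) and the H2AC14 window chr6:27814778-27815027 (minus).
H2AC4: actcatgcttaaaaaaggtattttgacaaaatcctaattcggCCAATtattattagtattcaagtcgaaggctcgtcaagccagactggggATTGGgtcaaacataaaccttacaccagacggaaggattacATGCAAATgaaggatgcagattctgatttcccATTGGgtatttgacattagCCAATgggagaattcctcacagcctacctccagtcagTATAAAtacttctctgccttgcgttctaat
H1-3: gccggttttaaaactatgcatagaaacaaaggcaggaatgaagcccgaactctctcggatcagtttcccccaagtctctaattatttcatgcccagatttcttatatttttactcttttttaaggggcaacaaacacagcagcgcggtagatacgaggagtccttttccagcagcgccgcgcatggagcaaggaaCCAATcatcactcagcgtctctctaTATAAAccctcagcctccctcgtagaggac
H4C6: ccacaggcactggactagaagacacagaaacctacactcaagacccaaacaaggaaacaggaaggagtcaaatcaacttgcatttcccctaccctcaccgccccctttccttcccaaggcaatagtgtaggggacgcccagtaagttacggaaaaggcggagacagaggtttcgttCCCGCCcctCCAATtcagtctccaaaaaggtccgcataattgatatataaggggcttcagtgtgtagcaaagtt
H2AC14: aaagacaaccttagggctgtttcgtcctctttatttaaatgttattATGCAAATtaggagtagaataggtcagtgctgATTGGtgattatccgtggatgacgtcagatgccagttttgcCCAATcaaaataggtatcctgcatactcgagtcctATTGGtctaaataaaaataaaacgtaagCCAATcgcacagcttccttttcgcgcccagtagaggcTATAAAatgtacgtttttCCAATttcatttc

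The 3 genes called in every knockdown shared only the CCAAT box, which was in 44 of the 52 windows matched to histone genes. The H2AC4 window held 4 CCAAT boxes, 1 TATA box and 1 octamer. The H1-3 window held 1 CCAAT box and 1 TATA box, and the H4C6 window 1 CCAAT box and 1 GC box. The H2AC14 window held 5 CCAAT boxes, 1 TATA box and 1 octamer.

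**Figure D2:**
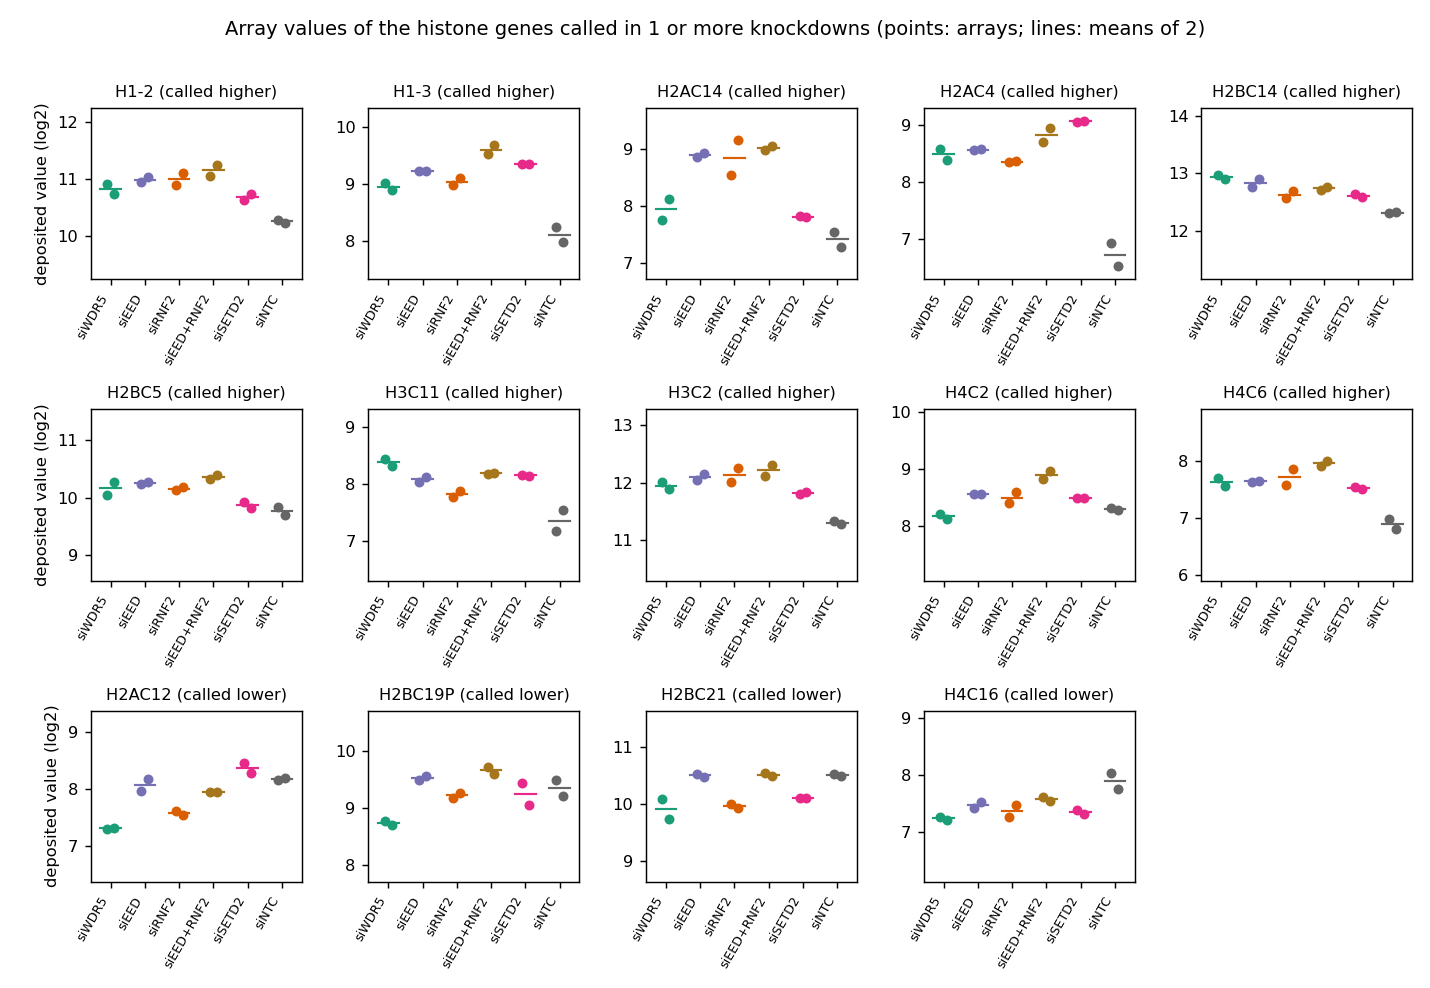
Deposited log2 value of the 14 histone genes called in at least 1 knockdown, with 1 point for each array and a line at the mean of 2; every panel spans the same log2 range. H2AC4 and H1-3 stand above siNTC in all knockdowns, as do H2AC14 and some other genes shown. H2AC14 stands furthest above siNTC in siEED, siRNF2 and siEED+RNF2 cells.

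Among the H1 genes, H1-2, which also makes polyadenylated mRNA, was called higher in the 3 Polycomb knockdowns. It read 10.92 and 10.74 in siWDR5, 10.94 and 11.04 in siEED, 10.90 and 11.11 in siRNF2, 11.06 and 11.25 in siEED+RNF2 and 10.64 and 10.74 in siSETD2 cells, against 10.29 and 10.24 in siNTC cells. The log2 changes were 0.73 in siEED cells, 0.74 in siRNF2 cells and 0.89 in siEED+RNF2 cells (SE 0.09 each; limma adjusted p 0.000121, 6.31e-05 and 1.31e-05), and 0.56 in siWDR5 cells and 0.42 in siSETD2 cells, where the fold was under 1.5. The siWDR5 arrays overlapped the siRNF2 pair. All 3 calls were lost when siNTC was replaced by the mean of other knockdowns as described above. The testis linker gene H1-6 and the other 3 H1 genes were called in no knockdown, with log2 changes between -0.46 and 0.09.

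Among the 14 H2A genes, H2AC14 was called higher in the 3 Polycomb knockdowns. Its values were 7.75 and 8.13 in siWDR5, 8.86 and 8.93 in siEED, 8.54 and 9.16 in siRNF2, 8.99 and 9.05 in siEED+RNF2 and 7.82 and 7.81 in siSETD2 cells, against 7.56 and 7.28 in siNTC cells. The 6 siEED, siRNF2 and siEED+RNF2 arrays were above the other 6, with no overlap. The log2 changes against siNTC were 1.48 in siEED cells, 1.43 in siRNF2 cells and 1.60 in siEED+RNF2 cells (SE 0.17 each; limma adjusted p 5.62e-05, 4.22e-05 and 1.47e-05), or 2.78, 2.7 and 3.04-fold. They were 0.53 in siWDR5 cells (SE 0.17, adjusted p 0.0343) and 0.40 in siSETD2 cells (SE 0.17, adjusted p 0.103), neither called.

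H2AC12 was the H2A gene that fell, in 2 knockdowns. It read 7.30 and 7.32 in siWDR5, 7.97 and 8.18 in siEED, 7.61 and 7.55 in siRNF2, 7.95 and 7.94 in siEED+RNF2 and 8.45 and 8.28 in siSETD2 cells, against 8.16 and 8.19 in siNTC cells. The siWDR5 and siRNF2 pairs were below all other arrays. The log2 change was -0.86 in siWDR5 cells (SE 0.08, limma adjusted p 1.32e-05) and -0.59 in siRNF2 cells (SE 0.08, adjusted p 0.000101), and the siRNF2 call was lost without siRNF2 replicate 2 or siNTC replicate 2. The other 11 H2A genes, the testis gene H2AC1 included, were called in no knockdown.

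The H2B genes, with 17 members the most numerous type, had no gene called in siEED, siRNF2 or siSETD2 cells. H2BC5, which like H1-2 also makes polyadenylated mRNA, read 10.05 and 10.27 in siWDR5, 10.24 and 10.28 in siEED, 10.13 and 10.18 in siRNF2, 10.33 and 10.39 in siEED+RNF2 and 9.93 and 9.81 in siSETD2 cells, against 9.84 and 9.70 in siNTC cells. Its log2 change of 0.59 in siEED+RNF2 cells (SE 0.08, limma adjusted p 0.000123) passed the fold threshold by little, and the call was lost without siEED+RNF2 replicate 2 or siNTC replicate 2 and with centred arrays. The siSETD2 pair overlapped the control pair, with a change of 0.10 (95% interval -0.08 to 0.28).

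H2BC14, which shares a promoter region with H2AC14, read 12.98 and 12.91 in siWDR5, 12.77 and 12.91 in siEED, 12.56 and 12.70 in siRNF2, 12.71 and 12.77 in siEED+RNF2 and 12.63 and 12.59 in siSETD2 cells, against 12.31 and 12.32 in siNTC cells. It was called in siWDR5 cells, at 0.63 (SE 0.07, limma adjusted p 4.75e-05). In the other knockdowns it lay 0.29 to 0.52 above siNTC, under the fold threshold.

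A pair of H2B members of chromosome 1 were lower in siWDR5 cells. H2BC21, whose mRNA can be polyadenylated, read 10.09 and 9.74 in siWDR5, 10.54 and 10.48 in siEED, 10.00 and 9.93 in siRNF2, 10.54 and 10.49 in siEED+RNF2 and 10.10 and 10.10 in siSETD2 cells, against 10.53 and 10.50 in siNTC cells. The siEED and siEED+RNF2 arrays overlapped the controls, with log2 changes of -0.01 and -0.00, and the other 3 knockdowns lay below them. The change was -0.60 in siWDR5 cells (SE 0.09, limma adjusted p 0.000434), a call lost without siWDR5 replicate 2, and -0.55 in siRNF2 cells and -0.41 in siSETD2 cells, under the fold threshold. H2BC19P, the pseudogene, read 8.76 and 8.69 in siWDR5 cells, against 9.49 and 9.21 in siNTC cells, and 9.04 to 9.71 in the other knockdowns. Its change of -0.62 in siWDR5 cells (SE 0.12, limma adjusted p 0.00196) was lost without siWDR5 replicate 2 or siNTC replicate 1. A cluster annotated with H2BC19P, H2BC20P and H2BC21 together changed by -0.12 in siWDR5 cells and was not called. Another, annotated with H2BC18, H2BP1 and H2BC21, changed by -0.95 there and was called lower.

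Among the 8 H3 genes, H3C2 and H3C11 were each called higher in 4 knockdowns. H3C2 is the annotated neighbour of H2AC4 and read 12.01 and 11.88 in siWDR5, 12.04 and 12.15 in siEED, 12.02 and 12.25 in siRNF2, 12.12 and 12.30 in siEED+RNF2 and 11.80 and 11.84 in siSETD2 cells, against 11.32 and 11.26 in siNTC cells. All knockdown arrays were above both control arrays. The log2 changes were 0.65 in siWDR5 cells, 0.80 in siEED cells, 0.84 in siRNF2 cells and 0.92 in siEED+RNF2 cells (SE 0.09 each; limma adjusted p at most 0.000202), and 0.53 in siSETD2 cells, not called.

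H3C11 gave 8.44 and 8.32 in siWDR5, 8.03 and 8.12 in siEED, 7.76 and 7.87 in siRNF2, 8.18 and 8.19 in siEED+RNF2 and 8.16 and 8.14 in siSETD2 cells, against 7.17 and 7.54 in siNTC cells. Here siWDR5 was highest and siRNF2 lowest among the knockdowns. The changes were 1.03 in siWDR5 cells, 0.73 in siEED cells, 0.83 in siEED+RNF2 cells and 0.80 in siSETD2 cells (SE 0.10 each; limma adjusted p at most 0.000213), and 0.47 in siRNF2 cells, not called. The siEED call was lost without siNTC replicate 1. A cluster annotated with both H3C11 and H3C6 was not called in any knockdown. Its changes were 0.10, 0.26, 0.22, 0.48 and 0.38 in siWDR5, siEED, siRNF2, siEED+RNF2 and siSETD2 cells, with siWDR5 lowest. The other 6 H3 genes, H3C10 and H3C12 among them, were called in no knockdown.

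Of the 13 H4 genes, H4C2 joined H4C6 in siEED+RNF2 cells. It read 8.22 and 8.13 in siWDR5, 8.56 and 8.56 in siEED, 8.40 and 8.59 in siRNF2, 8.83 and 8.96 in siEED+RNF2 and 8.50 and 8.49 in siSETD2 cells, against 8.32 and 8.29 in siNTC cells. The siEED+RNF2 pair was above all other arrays and the siWDR5 pair below them. The change in siEED+RNF2 cells was 0.60 (SE 0.07, limma adjusted p 5e-05), a call lost without siEED+RNF2 replicate 2 or siNTC replicate 2 and with centred arrays.

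H4C16, the member that lies alone on chromosome 12, had its highest values in siNTC cells. It read 7.26 and 7.22 in siWDR5, 7.43 and 7.53 in siEED, 7.28 and 7.48 in siRNF2, 7.61 and 7.55 in siEED+RNF2 and 7.39 and 7.33 in siSETD2 cells, against 8.04 and 7.77 in siNTC cells. No knockdown array reached the lower control array. The change was called in siWDR5 cells alone, at -0.66 (SE 0.09, limma adjusted p 0.000247), and not without siNTC replicate 1, while those of -0.43 in siEED cells, -0.53 in siRNF2 cells, -0.32 in siEED+RNF2 cells and -0.55 in siSETD2 cells were under the fold threshold.

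**Figure D3:**
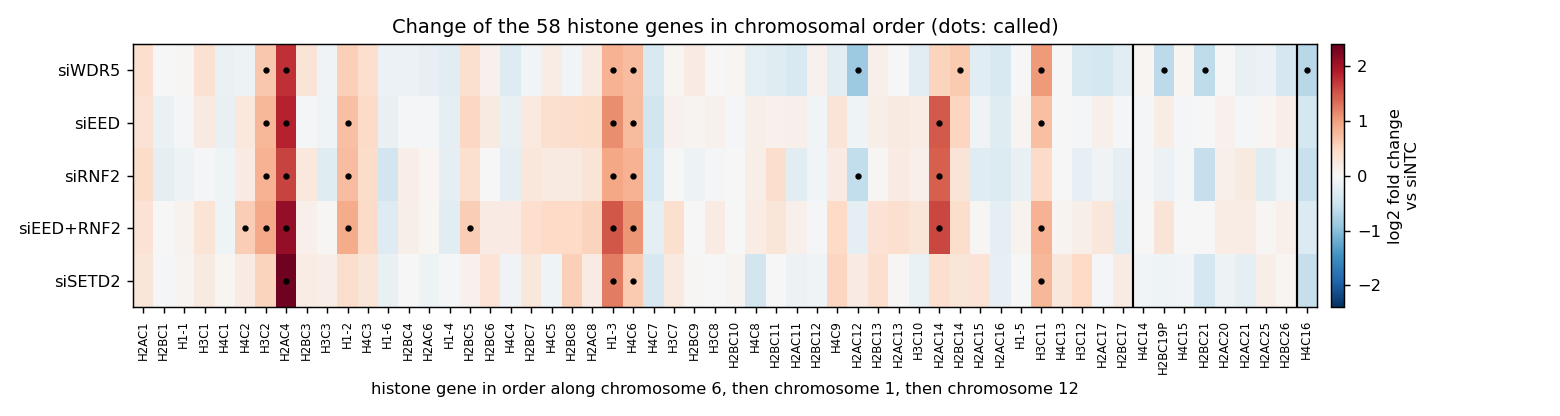
Log2 fold change against siNTC of the 58 histone genes in each knockdown (rows), in their order along chromosome 6, chromosome 1 and chromosome 12 (columns, divided by black lines); dots mark calls. The called genes are scattered along chromosome 6, with H3C2 beside H2AC4 and H1-3 beside H4C6, and chromosome 1 holds 2 calls, both in siWDR5 cells.

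Some neighbours of called genes were called and others were not. On chromosome 6 the neighbours H3C2 and H2AC4 were both higher, and so were H1-3 and H4C6. H2BC3, on the other side of H2AC4, was called in no knockdown, and neither was H4C7, on the other side of H4C6 and one of the 9 genes of low signal.

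Many H2A and H2B genes lie head to head and are transcribed away from a shared promoter region. There were 9 such pairs measured, with starts within 1000 bases of each other on opposite strands. The change of the H2A gene and that of its H2B partner differed by a median of 0.16 (log2) over the 9 pairs and 5 knockdowns. H2AC14 and H2BC14 differed most, by 0.95 in siEED cells, 1.12 in siRNF2 cells and 1.18 in siEED+RNF2 cells, against -0.11 in siWDR5 cells and 0.10 in siSETD2 cells. In the other 8 pairs the difference was at most 0.70, in siRNF2 cells between H2AC11 at -0.27 and H2BC11 at 0.43, neither of which was called. The H2AC14 window printed above overlaps the H2BC14 window, chr6:27814772-27815021 (plus strand), over most of its length and so holds the sequence between their starts. An octamer lay between the starts of 7 of the 9 pairs.

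**Figure D4:**
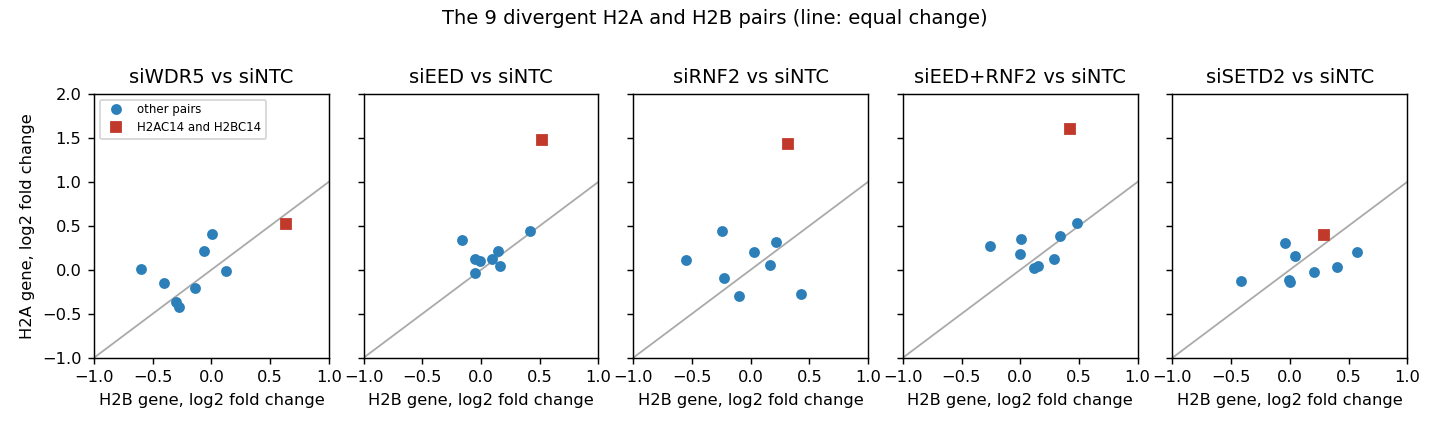
Log2 fold change against siNTC of the H2A gene (vertical axis) and of the H2B gene (horizontal axis) of 9 head-to-head pairs in each knockdown, with a line of equal change. H2AC14 and H2BC14 (square) lie 0.95 to 1.18 above the line in siEED, siRNF2 and siEED+RNF2 cells, and the other pairs lie within 0.70 of it.

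The promoters divided by histone type more than by response. A window was matched for 52 of the 58 genes, all but H2AC12, H2BC19P, H3C11, H3C12, H4C1 and H4C3. The CCAAT box was in all 6 H1, 13 H2A, 16 H2B and 6 H3 windows and in 3 of 11 H4 windows, beside 37.0% of 27305 gene promoters of the same length. The octamer, bound by the POU factor OCT1, was in 10 of 13 H2A and 13 of 16 H2B windows and in none of the H1, H3 and H4 windows, beside 2.03% of all promoters. The TATA box was in 34 of 52 windows (65.4%, beside 13.0%), and the GC box in 4 of 6 H1 and 7 of 11 H4 windows but in 3 of 29 H2A and H2B windows (beside 46.1%).
Of the 9 windows of genes called higher in a knockdown, 8 held a CCAAT box, 7 a TATA box, 3 an octamer and 3 a GC box. Of the other 43 windows, 36 held a CCAAT box, 27 a TATA box, 20 an octamer and 11 a GC box.

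**Figure D5:**
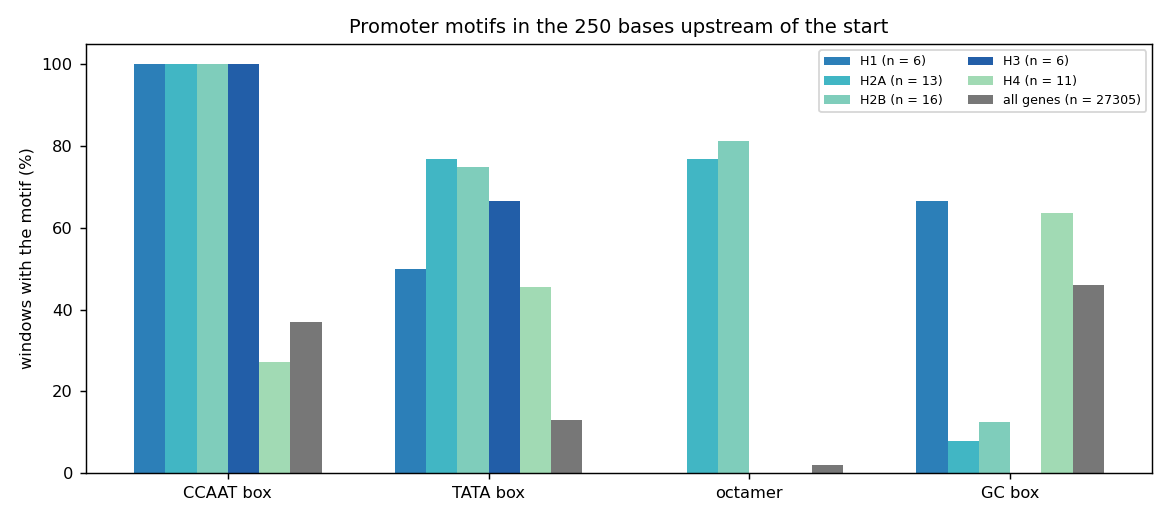
Percentage of 250-base upstream windows that hold each motif on either strand, for the 5 histone types (number of windows in the legend) and for all 27305 gene promoters (grey). The octamer is in 76.9% of H2A and 81.2% of H2B windows and in no H1, H3 or H4 window.

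The 20 transcript clusters annotated with several genes, which held 17 distinct sets of values, were tested among all 33297 clusters and are not tied to single genes. Of the 20, 1 was called higher and 2 lower in siWDR5 cells, 1 higher and 0 lower in siEED cells, 1 higher and 0 lower in siRNF2 cells, 3 higher and 0 lower in siEED+RNF2 cells, and 1 higher and 0 lower in siSETD2 cells. In the same fits limma called 6.14%, 6.42%, 10.4%, 11.6% and 5.51% of all clusters in either direction. The 2 clusters lower in siWDR5 cells had changes of -0.95 and -0.93, and both carried H2B annotations only. The cluster at -0.93 was annotated with H2BC18 and H2BP1. Another cluster with that same annotation changed by 0.02 in siWDR5 cells and was not called. The cluster annotated with H2BC15 and H2AC15 was called higher in siWDR5 (0.65), siEED (0.72), siEED+RNF2 (0.74) and siSETD2 cells (0.65). Clusters of H4C11 and H4C12 were called at 0.69 in siRNF2 cells and at 0.66 and 0.84 in siEED+RNF2 cells. Those of H4C14 and H4C15 changed by 0.48, 0.54 and 0.54 in siEED, siRNF2 and siEED+RNF2 cells, not called. The single-gene entries of H4C14 and H4C15 changed by at most 0.06.

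Knockdowns were also compared directly, which leaves out the siNTC arrays. Between siEED+RNF2 and siEED cells limma called 0 of the 58 genes higher and 0 lower, beside 0.157% and 2.75% of all genes. Before adjustment, 9 had p under 0.05 in the upward and 0 in the downward direction, and 49 of the 58 differences were positive, with a median of 0.10 beside 0.03 over all genes. For H2AC4 the difference was 0.26 (95% interval -0.00 to 0.53), for H1-3 0.37 (0.17 to 0.57) and for H2BC5 0.10 (-0.08 to 0.28). Between siEED+RNF2 and siRNF2 cells 0 were called in either direction, beside 0.239% higher and 3.03% lower, with 28 higher and 1 lower at an unadjusted p under 0.05, 48 positive and a median of 0.20 beside 0.02. The H1-3 difference there was 0.56 (0.36 to 0.76, limma adjusted p 0.00107), a fold of 1.47 and so just short of the threshold. For these direct comparisons the shares of all genes with a positive difference, or at an unadjusted p under 0.05, are not given.

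Between siRNF2 and siEED cells limma likewise called 0 higher and 0 lower, beside 0.793% and 0.467% of all genes, with 2 higher and 13 lower at an unadjusted p under 0.05. H2BC21 and H2AC12 had the greatest differences, of -0.55 (95% interval -0.75 to -0.34) and -0.50 (-0.67 to -0.32). H2AC4 differed by -0.21 (-0.47 to 0.05), H1-3 by -0.19 (-0.39 to 0.01) and H2AC14 by -0.05 (-0.42 to 0.33).

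siWDR5 against siEED gave 0 genes higher (1 at an unadjusted p under 0.05) and 4 lower, beside 1.1% and 2.23% of all genes. The 4 were H2AC14 at -0.95 (SE 0.17, limma adjusted p 0.00232), H2BC19P at -0.79 (SE 0.12, 0.000772), H2AC12 at -0.77 (SE 0.08, 5.6e-05) and H2BC21 at -0.60 (SE 0.09, 0.000909). The count of lower genes was 8 without siWDR5 replicate 1. H2AC4, with a difference of -0.08 (95% interval -0.34 to 0.18), and H4C6, with -0.01 (-0.21 to 0.20), were not called. siSETD2 against siWDR5 gave 4 genes higher and 0 lower (6 lower at an unadjusted p under 0.05), beside 2.99% and 2.86%. The 4 were H2AC12 at 1.06, H3C12 at 0.83, H4C9 at 0.77 and H2BC8 at 0.64 (SE 0.08 to 0.11, limma adjusted p at most 0.000236). H3C12, H4C9 and H2BC8 were not called against siNTC and are named here because they passed in this comparison. H3C12 read 10.60 and 10.65 in siSETD2 cells, against 9.95 and 9.65 in siWDR5 cells, with siNTC between them at 10.13 and 10.18.

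Genes that act on the clustered histone genes were examined as lists. Of 12 measured genes of histone gene transcription at the histone locus body, 0 were called higher and 2 lower in siWDR5, 0 and 1 in siEED, 0 and 3 in siRNF2, 0 and 4 in siEED+RNF2, and 1 and 1 in siSETD2 cells. For this and the lists that follow, the shares of all genes called higher and lower were 2.8% and 3.22% in siWDR5, 3.74% and 2.63% in siEED, 6.37% and 3.81% in siRNF2, 5.49% and 6.02% in siEED+RNF2, and 2.64% and 3.18% in siSETD2 cells. No member of the list was higher at an unadjusted p under 0.05 in siWDR5, siEED, siRNF2 or siEED+RNF2 cells, and the list median lay between -0.42 and -0.30 in those 4 knockdowns and at -0.09 in siSETD2 cells. NPAT, the coactivator of all histone types, read 8.95 and 8.81 in siEED+RNF2 cells, against 10.17 and 10.16 in siNTC cells, a change of -1.29 (SE 0.07, limma adjusted p 1.27e-07). In siRNF2 cells NPAT read 9.56 and 9.42, a change of -0.68. CASP8AP2, a structural protein of the histone locus body, read 7.57 and 7.62 in siEED+RNF2 cells, against 9.15 and 9.08 in siNTC cells (-1.52, SE 0.07, adjusted p 3.51e-08). CCNE2, an E cyclin, changed by -1.16 in siWDR5 cells, -0.68 in siRNF2 cells and -0.94 in siEED+RNF2 cells, and NFYA, the CCAAT-binding subunit of NF-Y, by -0.62 in siEED cells, -1.05 in siRNF2 cells and -0.75 in siEED+RNF2 cells. Whether these changes have a part in the histone values was not tested.

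NPAT and CASP8AP2 also differed between the dual and the single knockdowns. NPAT was lower in siEED+RNF2 than in siEED cells by 0.86 on the log2 scale and CASP8AP2 by 1.14, both called by limma (adjusted p 1.23e-05 and 2.65e-06).

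Of 16 measured genes of histone pre-mRNA processing and decay, at most 1 was called in a direction in any knockdown. SLBP, the stem-loop binding protein, read 8.65 and 8.67 in siEED+RNF2 cells and 8.52 to 8.76 in siWDR5, siEED, siRNF2 and siSETD2 cells, against 8.82 and 8.83 in siNTC cells, and was not called. SNRPD3, an Sm protein that is part of the U7 particle, was higher in siWDR5 (0.60), siEED (0.62) and siEED+RNF2 cells (0.63). TUT7, a uridylyl transferase, was lower in siEED+RNF2 cells (-1.06), and CSTF2, a cleavage factor, higher in siSETD2 cells (0.69). Of 17 histone chaperones, ATRX alone was called, at -0.76 in siRNF2 cells and -1.41 in siEED+RNF2 cells. It deposits H3.3 with DAXX.

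Genes of DNA replication share the S phase timing of the histone genes. Of 22, 0 were higher and 1 lower in siWDR5, 1 and 1 in siEED, 2 and 1 in siRNF2, 1 and 0 in siEED+RNF2, and 1 and 0 in siSETD2 cells, with list medians between -0.06 and 0.14. These counts lie near the shares of all genes called. In siEED+RNF2 cells 18 of the 22 changes from siNTC were positive, with 10 higher and 2 lower at an unadjusted p under 0.05 and a median of 0.11. Set against siRNF2 cells, siEED+RNF2 cells had 19 of 22 positive differences in this list, with 12 higher and 2 lower before adjustment and a median of 0.17. The histone genes had medians of 0.18 and 0.20 in these comparisons, and the part of S phase in them was not tested. No share of all genes is given beside the counts of positive changes or those before adjustment. GINS2, a subunit of the replicative helicase, was higher in siEED (0.68), siRNF2 (0.62), siEED+RNF2 (0.79) and siSETD2 cells (0.66), and RFC4, a clamp loader subunit, in siRNF2 cells (0.67). TK1, thymidine kinase, was lower in siWDR5 (-0.60), siEED (-0.62) and siRNF2 cells (-0.72).
Among 13 measured CDK inhibitors and G1 regulators, 3 were called higher and 1 lower in siWDR5, 2 and 0 in siEED, 3 and 0 in siRNF2, 2 and 0 in siEED+RNF2, and 1 and 2 in siSETD2 cells. CCND1, a D cyclin, was higher by 1.60 in siWDR5 cells, 0.70 in siRNF2 cells, 0.82 in siEED+RNF2 cells and 1.01 in siSETD2 cells. CCND2 was higher by 0.77, 0.68, 1.04 and 0.92 in siWDR5, siEED, siRNF2 and siEED+RNF2 cells and lower by -0.97 in siSETD2 cells. RBL1, a pocket protein, was higher in siWDR5 (0.74), siEED (0.59) and siRNF2 cells (0.64), and CDKN1B, the inhibitor p27, was lower in siWDR5 (-0.67) and siSETD2 cells (-1.05). The part of these changes in the histone values was not tested.

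Replacement and variant histone genes, which lie outside the replication-dependent set, were compared for reference. Of 9 measured replacement and variant histone genes, H1-10, a linker histone made throughout the cell cycle, was the one called. It read 8.27 and 8.11 in siWDR5, 8.24 and 8.48 in siEED, 8.56 and 8.55 in siRNF2, 8.61 and 8.78 in siEED+RNF2 and 8.11 and 8.01 in siSETD2 cells, against 7.58 and 7.72 in siNTC cells. As for H1-3, all knockdown arrays were above the controls and the siEED+RNF2 pair was highest, with changes of 0.71 in siEED cells, 0.90 in siRNF2 cells and 1.04 in siEED+RNF2 cells (SE 0.10 each; limma adjusted p at most 0.000167). Members of the replication-dependent set were also counted as lists, which repeats calls given above. Of 7 members known to make polyadenylated mRNA, 1 was called higher in siEED cells, 1 in siRNF2 cells and 2 in siEED+RNF2 cells and 1 lower in siWDR5 cells. These were the calls of H1-2, H2BC5 and H2BC21. None of 4 testis histone genes was called in any knockdown by limma. These were the members H1-6, H2AC1 and H2BC1, and H3-4, which is not a member. At an unadjusted p under 0.05 at most 1 was higher and 3 lower in a comparison.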

How the data were processed

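Total RNA of 12 NCCIT samples was hybridised to Affymetrix Human Gene 1.0 ST arrays after labelling with a kit that primes along whole transcripts. The deposited values were log2 signals per transcript cluster. Both GCRMA and Partek are named in the submitters' processing notes; no other step is stated there. Arrays carry no read depth, so their number limits the precision.

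The deposited log2 values were used without further normalization. Clusters were named from the platform annotation, with symbols updated through RefSeq gene numbers: 12083 clusters had no gene, 19460 had 1 and 1754 had several. The cluster with the highest mean stood for a gene where several measured it (769 genes). limma 3.58.1 (R 4.3.3) fitted 1 mean for each treatment over all 12 arrays, with 6 residual degrees of freedom, and 95% intervals used the t distribution on the residual and prior degrees of freedom. P-values were adjusted by Benjamini-Hochberg over 18417 genes for each comparison. Tables were made with Python 3.11.15 and pandas 2.3.3. On simulated data for siWDR5 against siNTC, run on 18417 genes, the fit recovered 20 of 50 genes simulated with a log2 change of 0.6, and 48, 49 and 50 of 50 for changes of 0.8, 1 and 2. It called 0 of 18217 genes simulated without a change. The simulated noise was independent between arrays, so this run cannot show false calls from a deviation that the siNTC pair shares.

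Array values were given for H1-3, H2AC4 and H2BC5 and, for each histone type and direction, for up to 4 called members with the largest change whose arrays lay beyond both siNTC arrays. The members, lists and tests were chosen with earlier results of these data known. Alternatives covered the samples fitted, the replicate block, variance moderation, normalization, centring, dim genes, the unit of test, both thresholds, the control and the omission of single arrays.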

Additional observations from a re-analysis of the deposited data

How the results depend on the processing

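Histone gene counts of the 10 comparisons depended mainly on the fold threshold and on the siNTC arrays. With no fold threshold the counts against siNTC were 14 higher and 15 lower in siWDR5, 17 and 4 in siEED, 15 and 11 in siRNF2, 22 and 5 in siEED+RNF2, and 18 and 5 in siSETD2 cells; directly, 5 were higher in siEED+RNF2 than in siEED, 16 higher in siEED+RNF2 than in siRNF2, 1 higher and 4 lower in siRNF2 than in siEED, 17 lower in siWDR5 than in siEED, and 19 higher and 4 lower in siSETD2 than in siWDR5 cells. At a fold of at least 2 they were 2 higher and 0 lower in siWDR5, 3 higher in siEED, 2 higher and 0 lower in siRNF2, 4 higher in siEED+RNF2 and 2 higher in siSETD2 cells, with 0 lower in siWDR5 against siEED and 1 higher in siSETD2 against siWDR5. The shares of all genes at these other thresholds are not given here. The counts therefore show the effect of the threshold and do not set the histone genes apart from other genes.

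With siNTC replaced by the mean of the knockdowns that share no siRNA pool with the one compared (siEED+RNF2 left out for siEED and siRNF2, and siWDR5 and siSETD2 alone for siEED+RNF2), 0 genes were higher in siWDR5, 1 in siEED, 1 in siRNF2 (0 lower), 2 in siEED+RNF2 and 1 in siSETD2 cells (1 lower). The log2 change of H1-3 became -0.35 in siWDR5 and -0.14 in siRNF2 cells, H2AC4 -0.22, -0.068 and -0.35 in siWDR5, siEED and siRNF2, H2AC14 -0.70 in siWDR5 and -0.86 in siSETD2, H3C2 -0.12 in siWDR5, H3C11 -0.038 in siEED and -0.077 in siEED+RNF2, and H4C6 -0.074 in siWDR5 and -0.22 in siSETD2 cells. All changes listed here turned negative, and others did not. H2AC14 kept its calls in siEED, siRNF2 and siEED+RNF2 cells with this reference, while H1-2, H3C2, H3C11 and H2BC14 lost all of theirs. The cause of the sign changes was not tested. With centred arrays 3 genes were lower in siRNF2 cells, 2 higher in siEED+RNF2 than in siRNF2 and 1 lower in siRNF2 than in siEED cells; after quantile normalization 1 was higher in siEED+RNF2 than in siRNF2 cells.

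Leaving out single arrays gave 6 to 8 higher and 2 to 4 lower in siWDR5, 6 to 8 and 0 in siEED, 6 to 7 and 1 to 2 in siRNF2, 7 to 10 and 0 in siEED+RNF2, and 4 to 5 and 0 to 1 in siSETD2 cells. The siWDR5 count of 2 lower arose without siWDR5 replicate 2 or siNTC replicate 1, the siRNF2 count of 2 without siRNF2 replicate 1 and the siSETD2 count of 1 without siNTC replicate 2. Directly, 0 to 2 were higher in siEED+RNF2 than in siRNF2 (2 without siRNF2 replicate 2 or siEED+RNF2 replicate 1), 0 to 1 higher and 0 to 1 lower in siRNF2 than in siEED (higher without siRNF2 replicate 1, lower without siEED replicate 1), 3 to 8 lower in siWDR5 than in siEED, and 4 to 6 higher in siSETD2 than in siWDR5 cells.

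Arrays of the same number did not deviate together: 15 correlations between treatments lay between -0.11 and 0.16, and 1 was above 0.1. With the replicate block the counts were 6 higher and 4 lower in siWDR5, 7 and 0 in siEED, 6 and 1 in siRNF2, 9 and 0 in siEED+RNF2, and 4 and 0 in siSETD2 cells. With 2 arrays a treatment, changes near a log2 value of 0.6 were called less reliably than larger ones.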
